A study of Caenorhabditis elegans with 8 samples.

Results

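C-type lectin genes were taken as all genes whose name is clec followed by a number, 264 of the 46904 genes in the deposited expression table. Of these, 93 had a mean of at least 1 FPKM (a level per transcript length and per library depth) over the 8 libraries, and these 93 were tested among 15365 genes of the series that passed the same limit. The other 171 stood under it, and 26 of them were listed at 0 in every library. The annotation in the files marked 24 of the 264 as pseudogenes, 1 of which was tested.

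The libraries were made from polyadenylated RNA of whole Caenorhabditis elegans hermaphrodites at 2 stages and in 2 genotypes, with n = 2 libraries in each of the 4 groups. All animals carried a daf-2 mutation, which at 25 °C drives larvae into the arrested dauer stage by loss of the insulin and IGF receptor, together with a mutation of hzl-1 (C44H9.4). The genotype labelled daf-2; hzl-1, for which no aak mutation is given, is called AMPK-intact. The one labelled daf-2; aak(0); hzl-1 is called aak(0), since it also lacks aak-1 and aak-2, which encode the catalytic subunits of the energy sensor AMPK. Dauers were collected after 96 h at 25 °C and post-dauers after 192 h. The design text places the post-dauers at a permissive temperature after dauer, and the growth protocol names 25 °C alone, so their temperature is not settled by the labels. Animals with functional daf-2 or hzl-1 were not analysed here. Libraries within a group are told apart by a number alone, with no word on whether their cultures were separate, so the p-values measure the spread between these libraries, which may be technical. In RNA of whole animals, fewer cells of a type and less RNA per cell cannot be told apart.

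C-type lectin domains are folds that in many animal proteins bind sugars, often with calcium. In C. elegans the genes form one of the largest families, most encode secreted or membrane proteins, and many are switched on in the intestine when the worm feeds on pathogenic bacteria, each pathogen with its own set. Other members act outside immunity: clec-87 and clec-88 encode proteins that were found to carry chondroitin chains (also named CPG-5 and CPG-6), and clec-38 was found to modulate axon guidance by netrin.

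The targeted genes were not near 0 in the libraries labelled aak(0): aak-1 stood at 14.7, 9.99, 7.16 and 7.72 FPKM there and aak-2 at 37.9, 49.2, 9.85 and 9.40, against 3.10 to 8.75 and 18.4 to 43.6 in the AMPK-intact libraries. Values per gene do not show a mutation within a gene, so they check no label, and every direction between genotypes rests on the labels. Sequencing gave 13.99 to 26.98 M recovered reads per library. Of the 93 tested members, 15 stood more than 2-fold apart in FPKM + 1 between the AMPK-intact dauer libraries, 13 of them higher in library 2. That was 16.1% of the members, against 10.7% of all tested genes. The same count was 7 in AMPK-intact post-dauers (7.53%, against 2.83% of all tested genes) and 4 in aak(0) dauers (4.3%, against 2.14%). In aak(0) post-dauers it was 8 (8.6%, against 15.7% of all tested genes). Gaps near 0 are understated on this scale: clec-82, at 1.65 and 4.01 FPKM in AMPK-intact dauers, is not counted. Marker genes of other tissues moved with stage and genotype as well. The 13 oocyte and eggshell genes summed to between 116.5 and 120.9 FPKM in AMPK-intact dauers, 1337 and 1395 in aak(0) dauers, 6942 and 7055 in AMPK-intact post-dauers, and 5948 and 6488 in aak(0) post-dauers, none at 0 in any library. The 12 intestinal markers summed to between 3445 and 5076, 4329 and 4581, 4290 and 4613, and 6386 and 6579 FPKM in the same group order. Of these, the intestinal esterase gene ges-1 stood at 3.91 and 6.00 FPKM in AMPK-intact dauers, 13.7 and 12.97 in aak(0) dauers, 29.1 and 29.0 in AMPK-intact post-dauers, and 33.7 and 32.9 in aak(0) post-dauers. The intestinal markers did not move as one. The gene mtl-1, much of the dauer sums, stood at 2771 and 4119, 2207 and 2122, 259.5 and 106.65, and 324.5 and 330.3 FPKM in that order. With stage, 8 of the 12 were called higher in AMPK-intact animals and 7 in aak(0). In each genotype 3 were called lower, elt-2, ifb-2 and mtl-1. The part of such shifts in the results on C-type lectin genes was not tested.

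For 4 of the 93 members the FPKM values were not backed by reads. The gene clec-209 had the same FPKM as F56A4.2 in all 8 libraries and 0 recovered reads in any of them. The gene clec-15 also had 0 recovered reads. The pair clec-248 and clec-249 reached 330.4 FPKM in a library, yet together they held 61 recovered reads over the 8 libraries. In aak(0) dauers clec-248 stood at 211.8 FPKM in library 1 and 0 in library 2, while the pair together stood at 211.8 and 203.9, so the value had moved from one gene to the other. How reads that fit several genes were shared out is not given in the sources used here. These 4 genes are included in the counts over 93 members and in the heatmap, and counts over the other 89 are given beside the main ones.

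Summed over all 264 genes, C-type lectin transcripts made up 1115 and 1314 FPKM in AMPK-intact dauers and 4398 and 4824 in their post-dauers. In aak(0) the sums were 2554 and 2612 FPKM in dauers and 6917 and 7355 in post-dauers. The sums did not overlap between any of the 4 groups. Much of the AMPK-intact dauer sum, 495.7 and 414.1 FPKM, was clec-248 and clec-249. The number of members at 1 FPKM or more was 41 and 57 in AMPK-intact dauers, 82 in both libraries of their post-dauers, 83 and 85 in aak(0) dauers, then 100 and 92 in aak(0) post-dauers. A few genes carried much of each total: the top 3 made up between 34.9% of the sum in an aak(0) dauer library and 60.8% in a AMPK-intact dauer library.

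**Figure D1:**
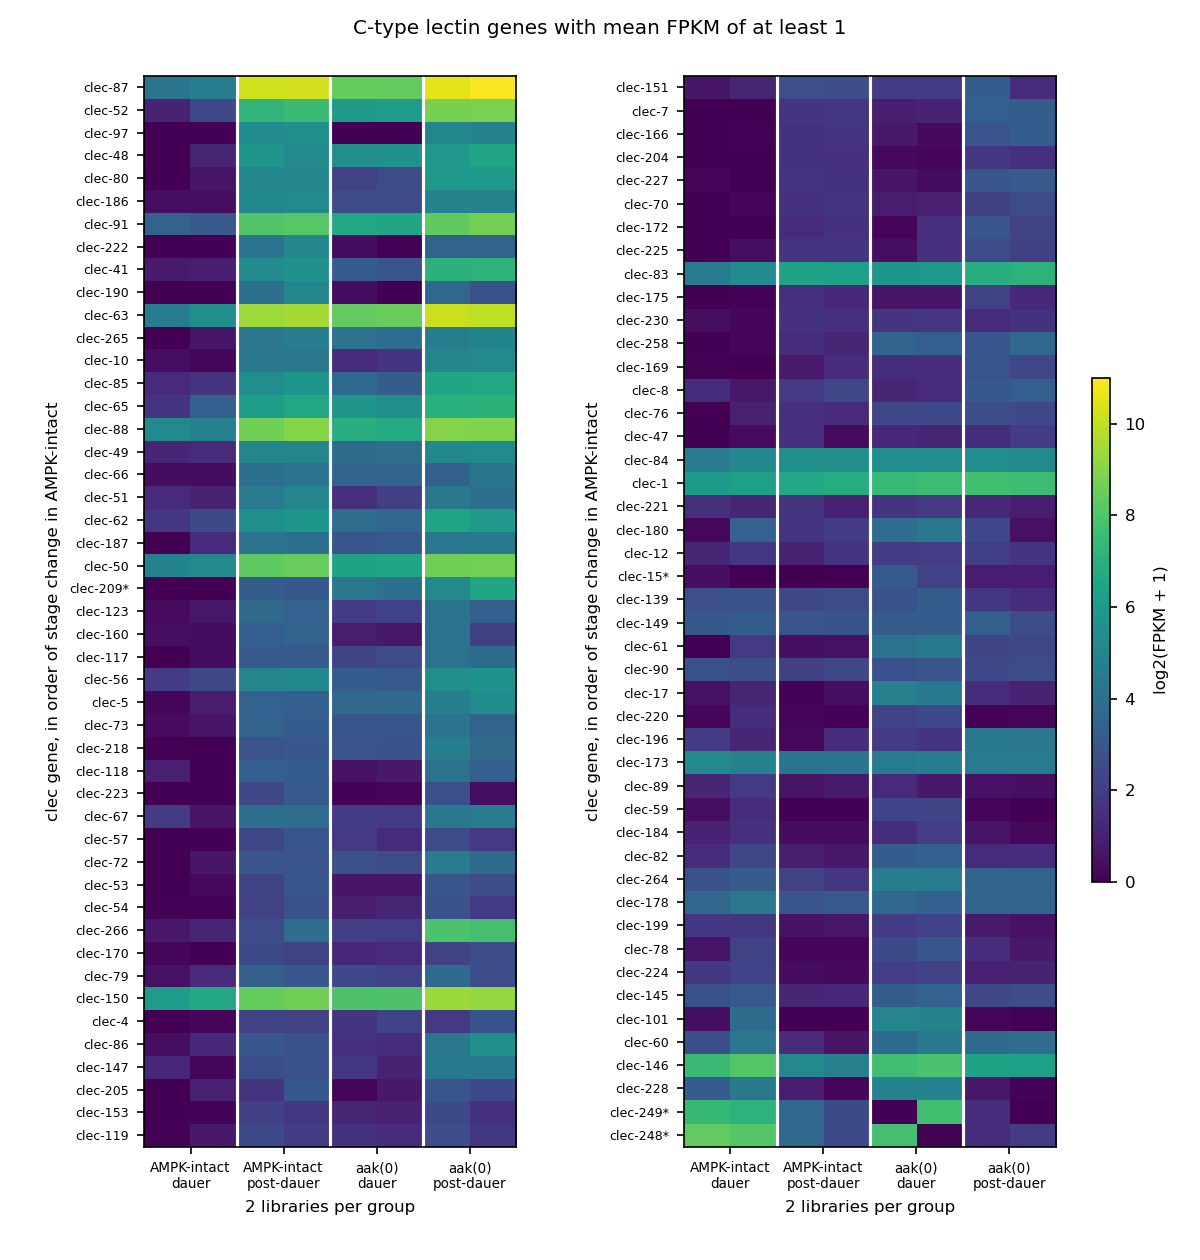
Level of the 93 tested C-type lectin genes, as log2(FPKM + 1) by colour, in the 8 libraries (columns, grouped by genotype and stage). Rows are ordered by the fitted stage change in AMPK-intact animals, and an asterisk marks clec-15, clec-209, clec-248 and clec-249, whose values are not backed by reads. The rows run down the left block and then the right one. The AMPK-intact dauers are the darkest, and so the lowest, columns over most rows of the left block, and the bottom rows of the right block are darker in post-dauers.

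The most abundant member was clec-87, one of the chondroitin proteoglycan genes. For clec-87 (WBGene00007709, I:10184478-10185470, build WBcel235), levels were 17.9 and 23.2 FPKM in AMPK-intact dauers, 1182 and 1201 in their post-dauers, 341.7 and 322.4 in aak(0) dauers, then 1477 and 1973 in aak(0) post-dauers. The 4 groups did not overlap, and the lowest post-dauer value stood above every dauer value. Its exons overlap those of iars-2 on the opposite strand over 138 nt, and no source says whether the libraries keep strand, so reads of the overlap cannot be told apart. The second in level, clec-63 (WBGene00009394, II:12895638-12897462), stood at 24.6 and 43.0, 677.8 and 742.2, 327.1 and 343.9, and 1117 and 979.6 FPKM in the same order. It followed the same order of groups, with AMPK-intact dauers lowest and aak(0) post-dauers highest. The other chondroitin proteoglycan gene, clec-88 (II:6365722-6367002), stood at 35.9 and 27.6, 403.7 and 506.2, 116.4 and 105.6, and 495.8 and 485.1 FPKM, whose post-dauer groups overlapped.

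Of the other abundant members, clec-150, clec-50, clec-91 and clec-52 also stood lowest in AMPK-intact dauers. The gene clec-150 ranged from 64.98 FPKM in a AMPK-intact dauer library to 650.8 in an aak(0) post-dauer library, clec-50 from 29.7 to 409.9, clec-91 from 7.43 to 410.5, and clec-52 from 1.05 to 444.1. The eighth, clec-1 (V:5700010-5701080), differed more by genotype than by stage, at 62.3 and 75.2 FPKM in AMPK-intact dauers, 96.2 and 109.6 in their post-dauers, 173.5 and 192.8 in aak(0) dauers, then 203.8 and 190.7 in aak(0) post-dauers. The ninth, clec-146 (II:13590640-13593797), ran the other way, at 182.4 and 266.4 FPKM in AMPK-intact dauers, 35.3 and 26.5 in their post-dauers, 197.3 and 230.4 in aak(0) dauers, then 79.1 and 72.5 in aak(0) post-dauers. Its dauer values overlapped between genotypes and its post-dauer values did not.

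**Figure D2:**
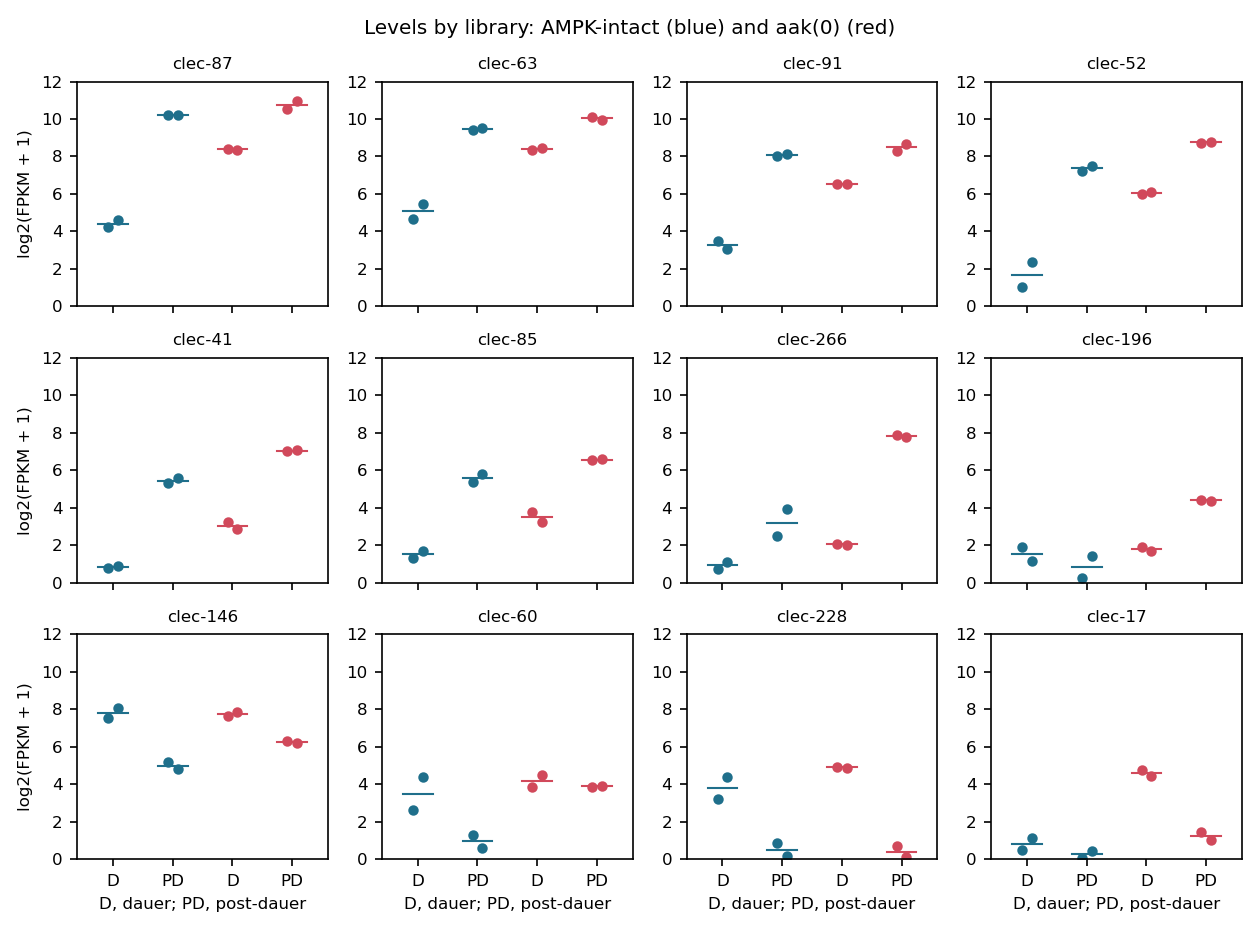
Levels of 12 C-type lectin genes as log2(FPKM + 1), one panel per gene, with a point per library and the 4 groups along the axis. In clec-87, clec-63, clec-91 and clec-52 the AMPK-intact dauers lie far below the other groups, clec-266 and clec-196 are highest in aak(0) post-dauers, and clec-228 and clec-17 are highest in aak(0) dauers.

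From dauer to post-dauer, most tested C-type lectin transcripts increased in AMPK-intact animals. Limma called 63 of the 93 members higher in post-dauers (67.7%), where 39.4% of all tested genes were called higher, and 12 members lower (12.9%), where 27.8% of all tested genes were called lower. In either direction 75 were called (80.6%, against 67.3% of all tested genes). Over the 89 members backed by reads the counts were 62 higher and 12 lower. The median member changed by log2 1.76, or 1.9 with genes absent from a group set at their bound, against 0.34 for all tested genes. With edgeR scaled by TMM on recovered reads, 128 members could be tested, 72 were called higher and 28 lower, where 33.1% of all genes edgeR tested were called higher and 35.4% lower. Over the genes that both tools tested, the edgeR median was log2 3.36 for the 90 members and 0.08 for all genes. The groups did not overlap for 86 members (92.5%), against 84.4% of all tested genes. The number called lower was 7 without post-dauer library 2. Of the markers tested, 8 of 12 intestinal ones were called higher and 3 lower, all 13 oocyte and eggshell and all 10 spermatogenesis genes higher and all 12 neuronal ones lower. Of 10 epidermal markers 6 were called higher and 1 lower, and of 10 body wall muscle markers 2 higher and 4 lower, and the markers' part in these counts was not tested.

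On the log2(FPKM + 1) scale, which understates rises from near 0, the 5 largest rises were those of clec-87, clec-52, clec-97, clec-48 and clec-80. The gene clec-87 rose by log2 5.80 ± 0.19 SE (limma adjusted p = 5.63e-06). In AMPK-intact dauers clec-52 (IV:8167164-8168813) stood at 1.05 and 4.09 FPKM and in their post-dauers at 150.7 and 177.8, a rise of log2 5.67 ± 0.39 SE (limma adjusted p = 4.85e-05). The gene clec-97 (I:11152704-11154329) had no reads in any dauer library of either genotype and 38.02 and 43.8 FPKM in AMPK-intact post-dauers, from 304 and 419 reads. Its exons overlap those of clec-98 on the opposite strand over 118 nt. Taking 3 counts per library as the floor, it was at least 111.6-fold higher there than in AMPK-intact dauers. The gene clec-48 (V:18157878-18159614) went from 0 and 1.23 FPKM to 51.8 and 35.6, and clec-80 (IV:2823746-2828069) from a mean of 0.255 to 33.3 FPKM, log2 4.88 ± 0.41 SE and 4.80 ± 0.26 SE (limma adjusted p = 0.000102 and 2.32e-05). The genes clec-222 and clec-190, chosen after their values were seen, had no reads in AMPK-intact dauers and were at least 88.9-fold and 61.3-fold higher in post-dauers over the same floor. Of the 5 genes named first, clec-97, clec-48 and clec-80 were listed at 0 in at least 1 AMPK-intact dauer library.

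Falls were fewer, and of the members called lower clec-146 was the most abundant. The gene clec-228 (V:15338569-15339482) went from 8.26 and 19.5 FPKM in AMPK-intact dauers to 0.800 and 0.110 in post-dauers (log2 -3.28 ± 0.45 SE, limma adjusted p = 0.00075). The gene clec-146 fell by log2 2.81 ± 0.23 SE (limma adjusted p = 9.34e-05), and its neighbour clec-145 (II:13589036-13590552) from a mean of 6.83 to 1.28 FPKM (log2 -1.77 ± 0.23 SE, limma adjusted p = 0.000644). Exons of clec-145 overlap those of Y48E1B.8 on the opposite strand over 226 nt. The gene clec-60 (II:10480152-10481846), which is induced by staphylococci in the intestine, stood at 5.18 and 19.7 FPKM in AMPK-intact dauers and at 1.45 and 0.500 in their post-dauers (log2 -2.56 ± 0.57 SE, limma adjusted p = 0.00668). Its dauer libraries lay far apart, and its exons overlap those of ZK666.13 on the same strand over 39 nt. The gene clec-178 (IV:5653949-5655004) went from a mean of 16.1 to 6.98 FPKM (log2 -1.05 ± 0.28 SE, limma adjusted p = 0.0139).

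In the aak(0) background the same stage comparison called 51 members higher in post-dauers (54.8%, against 25.9% of all tested genes) and 16 lower (17.2%, against 27% of all tested genes). In either direction 67 were called (72%, against 52.9% of all tested genes). Over the 89 members backed by reads the counts were 50 higher and 15 lower. The median member changed by log2 1.18, with or without such bounds, where the median over all tested genes was 0.02. The groups did not overlap for 82 members (88.2%, against 77.5% of all tested genes). EdgeR with TMM scaling called 58 higher and 27 lower, against 25% and 29.9% of all genes it tested. Of the markers, 7 of 12 intestinal ones were called higher and 3 lower, all 13 oocyte and eggshell and 5 of 10 spermatogenesis genes higher and 10 of 12 neuronal ones lower. Of 10 epidermal markers 3 were called higher and 3 lower, and of 10 body wall muscle markers 1 higher and 6 lower, and the markers' part in these counts was not tested.

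On the log2(FPKM + 1) scale, which understates rises from near 0, clec-266 (WBGene00016088, X:6617393-6622915) rose most in aak(0). It went from 3.18 and 3.07 FPKM in aak(0) dauers to 237.0 and 217.9 in aak(0) post-dauers (log2 5.79 ± 0.44 SE, limma adjusted p = 0.000202). In AMPK-intact it stood at 0.690 and 1.18 FPKM in dauers and at 4.63 and 14.2 in post-dauers, so aak(0) post-dauers lay above every other library by more than the spread within any group. Exons of clec-266 overlap those of kqt-1, a potassium channel gene, on the opposite strand over 371 nt, and kqt-1 stood between 0.330 and 2.64 FPKM in all libraries. The gene clec-97 was at 30.97 and 29.3 FPKM in aak(0) post-dauers and had no reads in aak(0) dauers, at least 121.9-fold higher over the same floor. That bound, log2 6.93, lies above the fitted change of clec-266. The gene clec-41 (V:13134965-13138101) rose from 8.36 and 6.35 to 128.0 and 135.4 FPKM (log2 4.00 ± 0.20 SE, limma adjusted p = 7.21e-05). The genes clec-10 (II:402580-404235) and clec-80 rose by log2 3.58 ± 0.23 SE and 3.57 ± 0.26 SE (limma adjusted p = 0.000128 and 0.000183).

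Among the falls in aak(0), clec-101 (I:11560637-11564387) went from 31.2 and 29.6 FPKM to 0.1 and 0.0400 (log2 -4.87 ± 0.96 SE, limma adjusted p = 0.00582). In AMPK-intact its dauer libraries lay far apart, at 0.360 and 13.7 FPKM, and its post-dauers were listed at 0. The gene clec-228 fell from 29.1 and 28.3 to 0.620 and 0.0800 FPKM (log2 -4.49 ± 0.45 SE, limma adjusted p = 0.000453). The gene clec-17 (I:12430028-12431500) fell from 26.4 and 20.8 to 1.73 and 1.06 FPKM (log2 -3.37 ± 0.32 SE, limma adjusted p = 0.000371), and it stood at no more than 1.20 FPKM in any AMPK-intact library. The gene clec-61 (II:10488747-10490514) went from a mean of 18.8 to 4.00 FPKM (log2 -1.98 ± 0.56 SE, limma adjusted p = 0.0231), a fall that edgeR did not call (adjusted p = 0.0581). The gene clec-146 fell by log2 1.48 ± 0.23 SE (limma adjusted p = 0.00228).

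Set side by side, 50 members were called higher in post-dauers in both genotypes and 9 lower in both: clec-59, clec-82, clec-145, clec-146, clec-184, clec-199, clec-224, clec-228 and clec-264. None of the 59 members called in both went in opposite directions by limma, nor of the 60 at an unadjusted p under 0.05, nor with DESeq2, while edgeR called 2 in opposite directions, clec-64 and clec-165, neither of which passed the FPKM limit. Limma called 13 higher in AMPK-intact animals alone, 1 (clec-196) higher in aak(0) alone, 3 lower in AMPK-intact animals alone (clec-60, clec-173 and clec-178) and 7 lower in aak(0) alone. The remaining 10 were called in neither. A call in one genotype alone is not a difference between them, which the interaction tests.

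**Figure D3:**
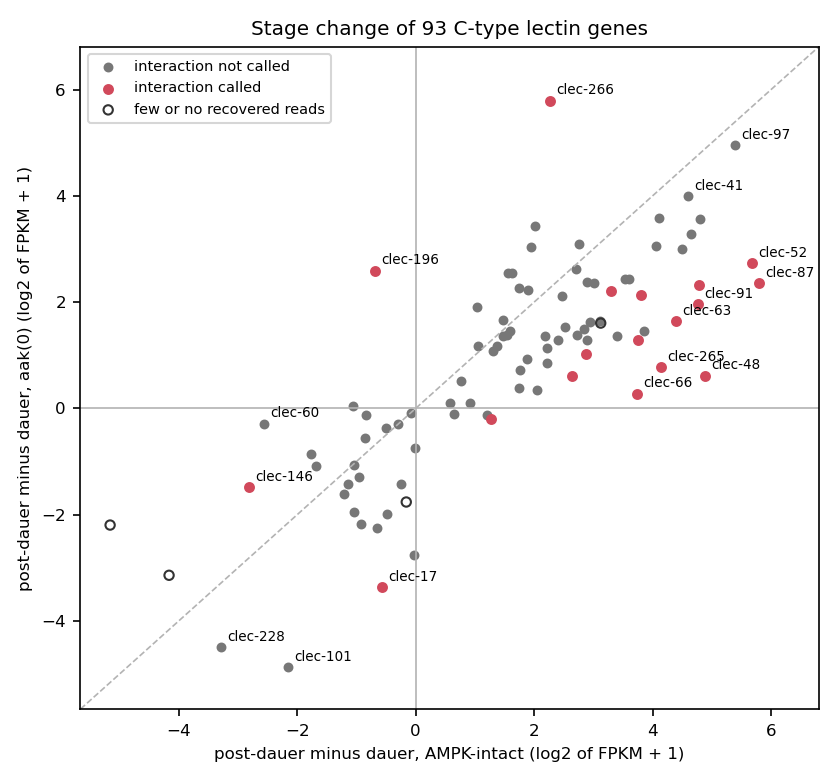
Stage change of the 93 tested C-type lectin genes, post-dauer minus dauer on the log2(FPKM + 1) scale, in AMPK-intact animals (horizontal) and in aak(0) (vertical). Red points are the 18 members whose stage change differed between genotypes by the interaction test, and open points are genes with few or no recovered reads. Most red points lie at large changes in AMPK-intact animals and smaller changes in aak(0), with clec-266 and clec-196 on the other side of the diagonal.

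The stage change itself differed between genotypes for 18 members (19.4%, against 11.3% of all tested genes). In 15 the signed change in aak(0) was below that in AMPK-intact animals (16.1%, against 7.8% of all tested genes) and in 3 it was above (3.23%, against 3.54% of all tested genes). The median member's interaction was log2 -0.91, where the median over all tested genes was -0.34. The count of 15 rose to 28 without AMPK-intact dauer library 2 and to 25 without aak(0) post-dauer library 1. It was 9 and 8 without AMPK-intact post-dauer library 1 and 2, and 6 and 7 without aak(0) dauer library 1 and 2. The count of 3 was 1 without AMPK-intact post-dauer library 1 or aak(0) dauer library 1, and 0 without aak(0) dauer library 2 or aak(0) post-dauer library 2. All 13 oocyte and eggshell genes, 5 of 10 spermatogenesis genes, 3 of 12 intestinal, 3 of 10 epidermal and 2 of 10 body wall muscle markers were also called lower by the interaction, and 1 epidermal and 1 muscle marker higher, and their part in these counts was not tested.

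Of these 15, clec-48 differed most on the log2(FPKM + 1) scale. It stood at 43.2 and 45.8 FPKM in aak(0) dauers, then 56.5 and 83.6 in aak(0) post-dauers, against 0 and 1.23 in AMPK-intact dauers, and the interaction was log2 -4.26 ± 0.58 SE (limma adjusted p = 0.00828). For clec-66 (II:12904398-12906686) the mean was 0.295 FPKM in AMPK-intact dauers and between 10.8 and 16.2 in the other 3 groups (interaction log2 -3.45 ± 0.44 SE, limma adjusted p = 0.00667). For clec-265 (X:3031723-3033203) the means were 0.300 FPKM in AMPK-intact dauers, 15.2 in aak(0) dauers, 21.4 in AMPK-intact post-dauers and 26.97 in aak(0) post-dauers (interaction log2 -3.36 ± 0.40 SE, limma adjusted p = 0.00516). In these 3 genes one group, the AMPK-intact dauers, stood apart from the other 3. The abundant members clec-87, clec-52, clec-91 and clec-63 had interactions of log2 -3.44 ± 0.27, -2.94 ± 0.55, -2.81 ± 0.29 and -2.76 ± 0.36 SE (limma adjusted p = 0.0018, 0.0215, 0.00343 and 0.00677).

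The gene clec-17 was a different case, since its values in AMPK-intact animals were low at both stages and its interaction of log2 -2.79 ± 0.45 SE (limma adjusted p = 0.013) came with high values in aak(0) dauers. That interaction was not called on recovered reads (edgeR log2 -1.82, adjusted p = 0.217). In the 3 members on the other side, clec-266, clec-196 and clec-146, post-dauers were higher in aak(0). The interaction of clec-266 was log2 3.52 ± 0.63 SE (limma adjusted p = 0.019). The gene clec-196 (IV:17276956-17277748) stood at 2.72 and 1.24 FPKM in AMPK-intact dauers, 0.180 and 1.70 in their post-dauers, 2.76 and 2.22 in aak(0) dauers, then 20.5 and 19.5 in aak(0) post-dauers (interaction log2 3.29 ± 0.62 SE, limma adjusted p = 0.0221). All libraries of the other 3 groups lay at or below 2.76 FPKM. For clec-146 the interaction was log2 1.33 ± 0.33 SE (limma adjusted p = 0.0478), a smaller fall in aak(0).

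Among dauers, 45 of the 93 members were called higher in aak(0) (48.4%, against 25.5% of all tested genes). None was called lower by limma, where 3.6% of all tested genes were, so the count in either direction was also 45, against 29.1% of all tested genes. The groups did not overlap for 78 members (83.9%, against 73.7% of all tested genes). At an unadjusted p under 0.05, 1 member was lower (against 6.27% of all tested genes). EdgeR with TMM scaling called clec-248, clec-164 and clec-173 lower (7.99% of all genes it tested) and DESeq2 clec-178, clec-164 and clec-173 (9.13% of all genes it tested). Over the 89 members backed by reads 43 were called higher. The median member stood log2 1.10 higher in aak(0), or 1.11 with bounds, where the median over all tested genes was 0.41. By edgeR with TMM scaling, over the genes both tools tested, the medians were log2 1.77 for the members and 0.03 for all genes. The count of 45 was 27 and 28 without aak(0) dauer library 1 and 2, with 1 member lower in each case.

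On the log2(FPKM + 1) scale, the largest called differences between dauers were those of clec-48, clec-52, clec-209, clec-87 and clec-17, of which clec-209 is not backed by reads. The gene clec-48 stood log2 4.93 ± 0.41 SE higher in aak(0) dauers (limma adjusted p = 0.000588). The gene clec-52 was at 61.7 and 67.5 FPKM in aak(0) dauers against 1.05 and 4.09 (log2 4.34 ± 0.39 SE, limma adjusted p = 0.000748). The gene clec-87 was higher by log2 3.96 ± 0.19 SE and clec-17 by log2 3.79 ± 0.32 SE (limma adjusted p = 0.000168 and 0.000588). Members were named here only where the dauer groups did not overlap, so that trait follows from the choice. All 13 oocyte and eggshell genes and 6 of the 12 intestinal markers were also called higher in aak(0) dauers, as were 7 of the 10 spermatogenesis, 6 of the 10 epidermal and 6 of the 10 body wall muscle markers tested, and none of the 12 neuronal ones. Their part in the difference was not tested.

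Among post-dauers the difference between genotypes was called for fewer members. Limma called 16 higher in aak(0) (17.2%, against 4.22% of all tested genes), 15 of them among the 89 backed by reads, and none lower (against 0.443% of all tested genes), so 16 in either direction, against 4.66% of all tested genes. The groups did not overlap for 65 members (69.9%, against 50.5% of all tested genes). At an unadjusted p under 0.05, 3 were lower (against 3.31% of all tested genes). EdgeR called 0 lower (0.786% of all genes it tested) and DESeq2 called 1, clec-190 (1.93% of all genes it tested). Of the members each could test, edgeR with TMM scaling called 13 higher, 3 of them under the FPKM limit, and DESeq2 20. The median member stood log2 0.49 higher, against 0.13 for all tested genes. The count of 16 was 1 and 2 without AMPK-intact post-dauer library 1 and 2, 3 and 4 without aak(0) dauer library 1 and 2, and 5 without aak(0) post-dauer library 2. Without aak(0) post-dauer library 1, 3 members were called lower. A fit with the replicate number as a block called 6 higher.

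On the log2(FPKM + 1) scale, the 5 largest of these differences were in clec-266, clec-196, clec-60, clec-209 and clec-86, of which clec-209 is not backed by reads. In post-dauers clec-266 was at 237.0 and 217.9 FPKM in aak(0) against 4.63 and 14.2 in AMPK-intact animals (log2 4.62 ± 0.44 SE, limma adjusted p = 0.0043), and clec-196 was at 20.5 and 19.5 against 0.180 and 1.70 (log2 3.56 ± 0.44 SE, limma adjusted p = 0.00995). Both were also called by edgeR (adjusted p = 0.0024 and 0.006). For clec-60 the values were 13.3 and 14.2 FPKM in aak(0) post-dauers against 1.45 and 0.500, within the range of the dauer libraries (log2 2.94 ± 0.57 SE, limma adjusted p = 0.0402). The gene clec-86 (X:7139875-7140566), whose exons overlap those of alh-10 on the opposite strand over 63 nt, had a mean of 31.8 ± 16.2 (SD, n = 2) FPKM against 6.29 (log2 2.08 ± 0.43 SE, limma adjusted p = 0.048), and edgeR did not call it (adjusted p = 0.064). The adjacent genes clec-145 and clec-146 were higher by log2 1.3 ± 0.23 SE and 1.28 ± 0.23 SE (limma adjusted p = 0.0315 and 0.032), and clec-41 by log2 1.61 ± 0.20 SE (limma adjusted p = 0.011). Of the markers, 1 of 12 intestinal, 1 of 10 epidermal and 1 of 10 spermatogenesis genes were called higher in aak(0) post-dauers, and of the oocyte and eggshell genes none.

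**Figure D4:**
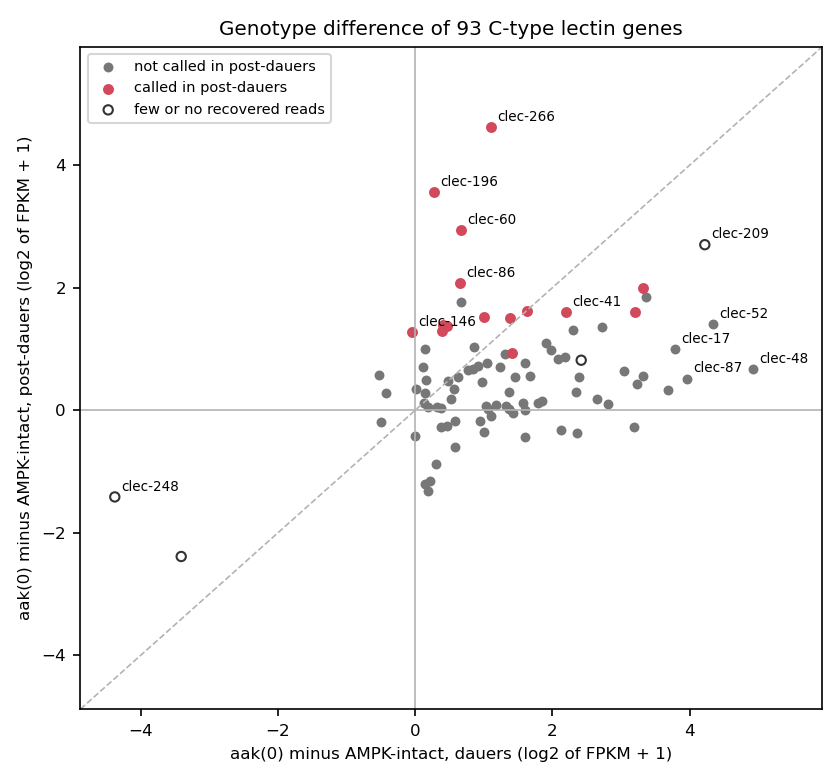
Difference between genotypes, aak(0) minus AMPK-intact on the log2(FPKM + 1) scale, for the 93 tested C-type lectin genes in dauers (horizontal) and in post-dauers (vertical). Red points are 15 of the 16 members called higher in aak(0) post-dauers, and clec-209, also called, is drawn open as a gene with no recovered reads. Of the genes far to the right, clec-48, clec-52, clec-87 and clec-17 lie at log2 1.40 or less between post-dauers and clec-209 at 2.7, while clec-266 and clec-196 stand highest in post-dauers.

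Of 12 members listed for a published role, chosen with results of these data known, 9 were tested. In AMPK-intact post-dauers 7 of the 9 were called higher (77.8%, against 67.7% of all tested members) and clec-60 lower. In aak(0) post-dauers 6 were called higher (66.7%, against 54.8%) and clec-17 lower. The genes clec-41 and clec-42 have been linked to defence against Bacillus thuringiensis. The level of clec-41 was 0.730 and 0.880 FPKM in AMPK-intact dauers and 38.8 and 46.7 in their post-dauers (log2 4.60 ± 0.20 SE, limma adjusted p = 1.26e-05). The gene clec-42 stood under the FPKM limit, with a highest group mean of 1.11 FPKM in aak(0) dauers. From few reads, edgeR called clec-42 higher in post-dauers than in dauers of AMPK-intact animals (adjusted p = 0.00997). It also called clec-42 higher in aak(0) than in AMPK-intact dauers and lower by the interaction (adjusted p = 0.00305 and 0.0462). The genes clec-85 and clec-67 are activated by the p38 MAP kinase PMK-1 in the intestine. The level of clec-85 (IV:2854339-2855456) was 1.54 and 2.29 FPKM in AMPK-intact dauers, 40.5 and 54.4 in their post-dauers, 12.5 and 8.60 in aak(0) dauers, then 91.2 and 95.8 in aak(0) post-dauers. It rose with stage in both genotypes (log2 4.05 ± 0.26 and 3.05 ± 0.26 SE, limma adjusted p = 3.71e-05 and 0.000272), and its exons share 397 nt with those of Y54G2A.40 on the same strand. The gene clec-67 (IV:3922165-3925045) rose by log2 2.7 ± 0.42 and 2.63 ± 0.42 SE (limma adjusted p = 0.00141 and 0.00264), with no called difference between genotypes.

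The genes clec-39 and clec-49 encode proteins linked to defence against Serratia marcescens. At most 2 reads of clec-39 were found in any library. The gene clec-49 (V:19748987-19751212) had means of 1.39 FPKM in AMPK-intact dauers, 31.1 in their post-dauers, 13.9 in aak(0) dauers, then 35.7 in aak(0) post-dauers, and its post-dauer groups were not called different (log2 0.19 ± 0.18 SE, limma adjusted p = 0.579). The gene clec-4 (II:12578356-12581098) was at a mean of 0.0700 FPKM in AMPK-intact dauers and between 2.93 and 4.19 in the other groups. The neural member clec-38 held at most 5 reads in any library.

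Genes of the p38 pathway, which switches on part of the family during infection, were mostly called lower in post-dauers. Of its 8 listed genes, all tested, 1 was called higher and 6 lower in AMPK-intact post-dauers, against 39.4% and 27.8% of all tested genes. In aak(0) post-dauers 0 were called higher and 5 lower, against 25.9% and 27% of all tested genes. Transcript levels do not give the activity of the pathway, and its part in the results on C-type lectin genes was not tested. The MAP kinase kinase gene sek-1 stood at 61.9 and 90.97 FPKM in AMPK-intact dauers and 18.6 and 17.1 in their post-dauers (log2 -2.01, limma adjusted p = 0.000243). The kinase gene pmk-1 itself was not called in any comparison, and atf-7, a transcription factor that PMK-1 phosphorylates, rose in AMPK-intact animals (log2 0.95, limma adjusted p = 0.000643). The adaptor gene tir-1 was the member called higher in aak(0) post-dauers, at 45.5 and 34.5 FPKM against 7.20 and 8.25 (log2 2.22, limma adjusted p = 0.00581). Of 19 other listed regulators of intestinal immune genes, 3 were called higher and 12 lower in AMPK-intact post-dauers, and 2 and 12 in aak(0), against the same shares of all tested genes. The latter list holds elt-2, which the intestinal list holds too. In it, daf-16, the transcription factor held in check by DAF-2, fell in AMPK-intact animals from 212.3 and 191.6 to 61.6 and 51.7 FPKM (log2 -1.82, limma adjusted p = 0.000143). It was lower in aak(0) than in AMPK-intact dauers, at 108.5 and 117.6 FPKM (log2 -0.83, limma adjusted p = 0.0131).

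C-type lectin genes lie on all 6 chromosomes, 96 of the 264 on V and 58 on IV, and often side by side. Taking genes within 20 kb of each other, 24 groups of at least 3 genes held 129 members. Of these 129, 38 were tested (29.5%), against 55 of the 135 outside such groups (40.7%). In 9 groups with 52 genes no member was tested, and none of the 52 exceeded 1.69 FPKM in any library. The largest group, of 15 genes on V, stayed at or below 0.870 FPKM. In 6 groups there were 3 or more tested members.

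**Figure D5:**
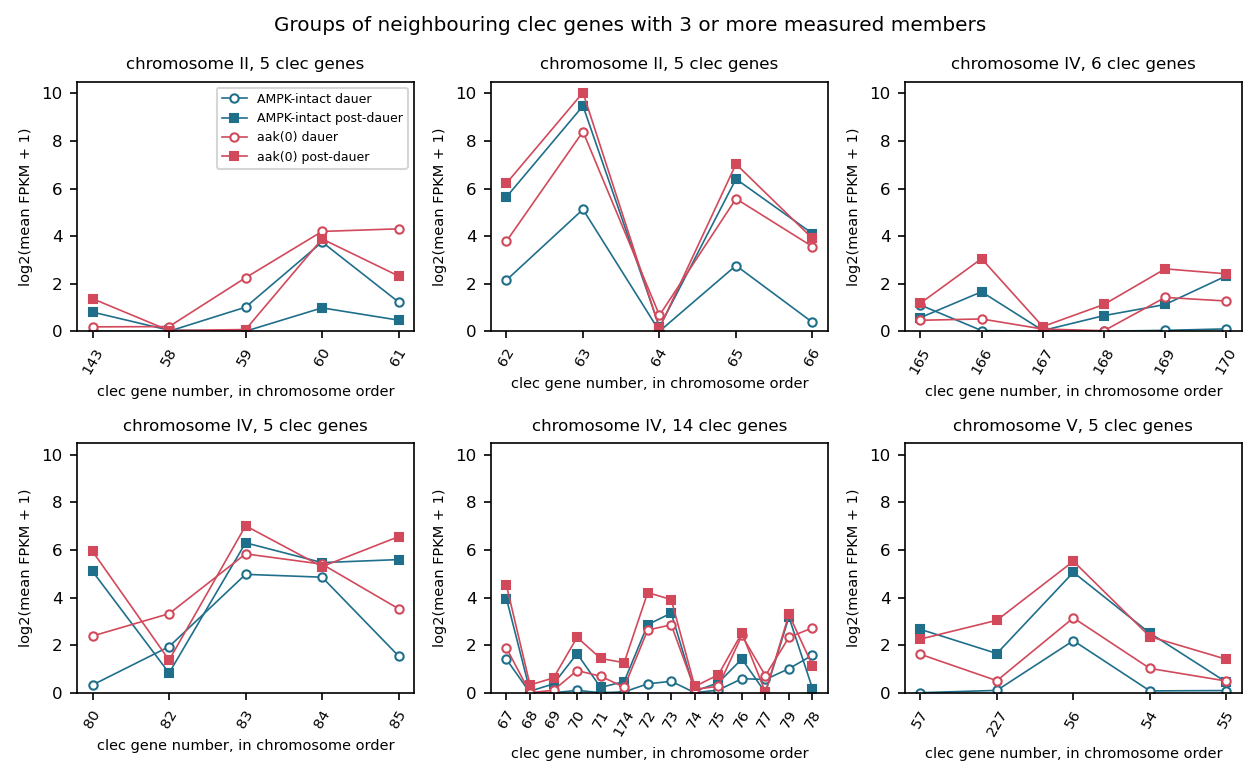
Group means of the C-type lectin genes, tested or not, in 6 groups of neighbouring genes, as log2(mean FPKM + 1), one panel per group of neighbours, with the genes along the axis in chromosome order and a line for each of the 4 groups of libraries. Circles are dauers and squares post-dauers. Squares lie above the circles of the same colour at most of the tested genes, and below them in both genotypes at clec-59, clec-60, clec-61, clec-78 and clec-82.

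Of the 26 tested members of these 6 groups, 20 were called higher in AMPK-intact post-dauers (76.9%, against 67.7% of all tested members) and 16 in aak(0) post-dauers (61.5%, against 54.8%). Whether neighbours move together was not tested. In the group of clec-62 to clec-66 (II:12893065-12906686), all 4 tested members rose in AMPK-intact animals and 3 rose in aak(0), and all 4 were higher in aak(0) dauers. Their levels differed widely: in AMPK-intact post-dauers clec-63 had a mean of 710.0 FPKM, clec-65 of 83.5, clec-62 of 49.1 and clec-66 of 16.2. The gene clec-64 stood under the FPKM limit and was tested by edgeR alone. In the group of clec-80 to clec-85 (IV:2823746-2855456), 4 of 5 tested members rose in AMPK-intact animals and clec-82 fell, from a mean of 2.83 to 0.775 FPKM (log2 -1.04 ± 0.33 SE, limma adjusted p = 0.0274). Exons of Y54G2A.7 overlap those of clec-82 over 116 nt on the same strand and those of clec-83 over 62 nt on the opposite strand. The rise of clec-84 in that group (log2 0.65 ± 0.23 SE, limma adjusted p = 0.0414) was not called by edgeR (adjusted p = 0.0808). Of the neighbours clec-59, clec-60 and clec-61 (group at II:10468351-10490514), 2 fell in each genotype and none rose. The largest group with tested members, 14 genes at IV:3922165-4014195, had 7 tested, 5 of which rose in AMPK-intact animals and 4 in aak(0). The members that rose and those that fell in AMPK-intact animals had similar gene models in the Ensembl annotation, with a median coding length of 1116 and 1110 nt.

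The limit of 1 FPKM passed clec-89 at 1.03, clec-204 at 1.07 and clec-184 at 1.13 FPKM, and left out clec-13 at 0.994, clec-104 at 0.959 and clec-261 at 0.954. Of the 171 members under it, 33 reached 1 FPKM in some library, 0 reached 5, and the highest single value was 3.75 FPKM for clec-234. EdgeR could test 38 of these low genes on recovered reads, and called 13 higher and 10 lower in AMPK-intact post-dauers, where it called 33.1% and 35.4% of all genes it tested. In aak(0) post-dauers it called 9 higher and 11 lower, against 25% and 29.9% of all genes it tested.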

How the data were processed

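Messenger RNA selected by its poly(A) tail from whole hermaphrodites was sequenced in read pairs, each read no longer than 80 nt. The authors deposited FPKM per gene for the 8 libraries, and for each genotype a table of count signal divided by a size factor, with log2 fold changes (dauer minus post-dauer) and p-values of their own DESeq2 test, per the file headers. Those deposited fold changes and p-values are not printed. Trimmomatic 0.35, STAR 2.7.1a, RSEM and DESeq2 1.30.1 with build WBcel235 are named per the submitters' processing notes, without role or order. How RSEM was run and how multi-mapping reads were treated is not given in the sources used here.

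Genes with mean FPKM of at least 1 were tested with limma 3.58.1 (trend) on log2(FPKM + 1) in R 4.3.3, with 1 fit of all 8 libraries and a mean per group (4 residual degrees of freedom, prior 2.69). P-values were adjusted by Benjamini-Hochberg over the 15365 genes, and those under 0.05 were called. A fold change on this scale understates the change of low genes. The 5 comparisons were post-dauer minus dauer in each genotype, aak(0) minus AMPK-intact at each stage, and the interaction, the stage change in aak(0) minus that in AMPK-intact. The stage comparisons share libraries with the genotype comparisons and the interaction.

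Within each library the deposited signal values were whole multiples of its smallest value, 100% at a relative tolerance of 1e-06, so whole reads were recovered: 13.99 and 18.72 M in AMPK-intact dauers, 15.61 and 18.75 M in their post-dauers, 23.41 and 25.34 M in aak(0) dauers and 20.65 and 26.98 M in aak(0) post-dauers. On these, edgeR 4.0.16 (quasi-likelihood; 17050 genes) and DESeq2 1.42.0 were run as alternatives. Coordinates are those of the files. The limma, edgeR (TMM) and DESeq2 fits were run on a simulated data set, and only the stage comparison in AMPK-intact animals was scored. The other comparisons and alternative settings were not tested in this way.

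The members, lists and rule for named genes were chosen with earlier results of these data known. Named were, per comparison, the 5 largest rises and 5 largest falls among called members with mean FPKM of at least 5 and no overlap of the groups, the 8 most abundant members, members with a published role, and neighbours. Any other member is named to account for a count or for all calls of the interaction, or was chosen after its values were seen.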

Additional observations from a re-analysis of the deposited data

Results flagged for a closer look

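The stage change of 18 C-type lectin genes differed between the genotypes by the interaction test of limma, 15 with a difference below 0 and 3 above. In log2 units the differences, aak(0) minus AMPK-intact, were -4.26 for clec-48, -3.45 for clec-66, -3.44 for clec-87 and -3.36 for clec-265. They were -2.94 for clec-52, -2.81 for clec-91, -2.79 for clec-17 and -2.76 for clec-63. For clec-49 and clec-186 the difference was -2.46 each, for clec-57 -2.03 and for clec-73 -1.85. It was -1.67 for clec-88, -1.48 for clec-230 and -1.08 for clec-50. The 3 above 0 were clec-146 at 1.33, clec-196 at 3.29 and clec-266 at 3.52. The sign is that of the signed changes: clec-17 fell in aak(0), and clec-146 fell in both genotypes, less in aak(0). On recovered reads edgeR did not call clec-17, clec-50 or clec-88 (adjusted p = 0.217, 0.205 and 0.0547). The groups hold 2 libraries each, too few for a test of single libraries that stand apart.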

How the results depend on the processing

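No called direction of a member reversed under any alternative: of 221 pairs of a member and a comparison called by limma, 133 were called under each alternative that could be run for that pair, and 87 were lost without at least 1 library. All 16 alternatives could be run for 149 pairs, of which 102 were called under each, since 153 pairs passed a mean of 5 FPKM and 215 were tested by edgeR. Few of the 133 were calls of the genotype difference between post-dauers or of the interaction. In these comparisons the smallest shares of the calls held. Counts of members moved by over 1.5 times as follows. Lower in AMPK-intact post-dauers were 22 with no filter, 7 with a mean of at least 5 FPKM, 28 and 27 with edgeR scaled by TMM and RLE and 30 with DESeq2, where limma gave 12. Lower in aak(0) post-dauers were 33, 7, 27 and 26 in the same order up to RLE, where limma gave 16. Lower in aak(0) dauers were 2 with no filter, 3, 4 and 3 with TMM, RLE and DESeq2. Higher in aak(0) post-dauers than in AMPK-intact were 9 with a pseudocount of 0.1 and 10 with a mean of at least 5 FPKM, and DESeq2 called 1 lower. By the interaction 6 were higher with TMM, RLE and DESeq2 each, and 25, 24 and 27 lower. Over all genes DESeq2 called 1080 between post-dauers, where limma called 716. Leaving out 1 library at a time gave 55 to 63 higher and 7 to 17 lower in AMPK-intact, 36 to 51 and 11 to 17 in aak(0), 27 to 50 and 0 to 1 between dauers, 1 to 22 and 0 to 3 between post-dauers, and 0 to 4 and 6 to 28 by the interaction. Over all genes these fits called 8159 to 11142, 5004 to 8742, 1309 to 5350, 95 to 1780 and 352 to 3947. The cause of these shifts was not tested, except that the limits on low values and the tools change which genes are tested. A lone sample left in a group is assumed to vary like the other groups.

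The replicate numbers share only a number: same-numbered libraries deviated with correlations of -0.258 to 0.015. With the replicate block, 6 members were called higher between post-dauers and 1 higher by the interaction, 62 and 11 by stage in AMPK-intact, 50 and 16 in aak(0), 43 between dauers and 12 lower by the interaction, and 367 and 1044 genes of all between post-dauers and by the interaction. The numbers crossed, chosen after seeing the data, gave 63 and 14, 50 and 17, 43 and 0, 11 and 0, and 2 and 14. At 2 libraries a group, members of few reads, such as clec-230 with at most 27 reads in a library, are measured least precisely.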
